A study of Homo sapiens with 14 samples.

Results

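The genes described here are 10 components of the machinery through which small RNAs silence messenger RNAs: the Argonautes AGO1, AGO2 and AGO3, the GW182 proteins TNRC6A, TNRC6B and TNRC6C, and the small RNA processing factors DROSHA, DGCR8, XPO5 and DICER1. They were taken by gene name, and all 10 had values in each of the 2 tables used, among 11261 genes for siRNA and 11835 for the deletion. The 14 RNA libraries came from teloHAEC, a line of telomerase-immortalised endothelial cells of the human aorta. In the siRNA arm, 4 libraries from cells transfected with siRNA against CALCRL, which encodes the calcitonin receptor-like receptor, were compared with 4 given scrambled siRNA, at 24 hours. In the deletion arm, Cas9 ribonucleoproteins, delivered by electroporation, cut on both sides of the CALCRL enhancer. The 3 libraries from these cells were compared with 3 given Cas9 and a control guide against HPRT, at 2 days. Both groups of the siRNA arm were thus given a synthetic duplex and transfection reagent, and both groups of the deletion arm Cas9. The labels state no cloning of the deleted cells, and the share of edited cells was not analysed here.

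A small RNA is made or delivered as a duplex, and 1 strand of it is loaded into an Argonaute protein, which then finds messenger RNAs mainly through bases near the 5′ end of that strand, the seed. Endogenous microRNAs reach that point through the nuclear Microprocessor (the RNase DROSHA with its partner DGCR8), the export receptor XPO5 and the cytoplasmic RNase DICER1, whereas a synthetic siRNA enters directly at the Argonaute. GW182 proteins bind Argonaute and recruit deadenylases, so that the target loses its poly(A) tail and decays. AGO2 alone among the human Argonautes listed here is known as an efficient slicer of fully paired targets.

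The tables gave 1 mean normalised count per gene and arm and a fold change with its standard error (SE), and no value for a single library, so group means below were derived from those values and carry no spread of their own. A call means an adjusted p-value below 0.05 over all genes of the table, and intervals are 95% intervals from the SE. Over all genes the mean normalised counts added up to 4547165 (siRNA) and 5153709 (deletion), and the depth of single libraries is unknown. The target CALCRL was lower in both arms in the authors' deposited tables, at a log2 fold change of -1.56 (SE 0.17) for siRNA and -1.47 (SE 0.43) for the deletion. A Student t reference ended the call of CALCRL in both arms (adjusted p 0.102 for siRNA and 0.357 for the deletion), and scaled statistics and removal of the GC trend ended it in the deletion arm (adjusted p 0.975 and 0.0766). With a Student t reference or scaled statistics 0 of 11830 genes passed in the deletion arm. The values 0.357 and 0.975 are therefore not particular to CALCRL, and AGO2 and DROSHA below share them. These alternatives, computed from the deposited values, refer the Wald statistic to a t distribution, divide it by its robust SD over all genes, or subtract the trend of log2 fold change on the GC content of the transcript's last 500 bases. The transcript taken for each gene was the annotated one with the longest 3′ UTR. Whether these cells used that 3′ end was not tested. Of 10 endothelial marker genes 9 had values in each table, summing to 1566 CPM of the table's total for siRNA and 1108 CPM for the deletion. Of them EGFL7 was lower in the siRNA arm (-0.46, SE 0.11) and CDH5 and KDR were lower in the deletion arm (-1.44, SE 0.35 and -1.05, SE 0.31) in the authors' deposited tables. These were the only calls, 1 of 9 and 2 of 9, where 3.46% and 15.8% of all genes were called. The markers not called had log2 fold changes of both signs in each arm. Among 13 markers of smooth muscle, fibroblast, blood and epithelial cells, 3 had values (ACTA2, TAGLN and KRT18). KRT18 was higher after the deletion (1.13, SE 0.30) in the authors' deposited table. It had 481 CPM for siRNA and 579 CPM for the deletion, where the highest endothelial marker had 412 and 234 CPM. Whether KRT18 marks other cells here was not tested. The part of these marker shifts in the results below was not tested. In bulk RNA fewer cells of a type and less RNA per cell cannot be told apart.

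The word GTAACAA is shown first because it was picked earlier, from these same data, as common in the 3′ UTRs of transcripts lower under the siRNA, and because a seed acts through such a word; its matches in the genes below are descriptions and give no independent support. In GENCODE release 29 on GRCh38, searched on the transcript strand, 4 of the 10 genes had the word in the coding sequence or the 3′ UTR of a coding transcript (AGO2, AGO3, TNRC6B and TNRC6C), against 16.4% of the 10912 genes searched. The matches outside AGO2, with 10 bases on each side, the word in capitals, and the match in CALCRL for comparison, read 5′ to 3′ as follows.
AGO3, coding sequence, chr1:36008739-36008765, plus strand: tgtttgtaatGTAACAAggaggcctgc
AGO3, 3′ UTR, chr1:36058232-36058258, plus strand: taaggtgataGTAACAAaggaagttag
AGO3, 3′ UTR, chr1:36059812-36059838, plus strand: gaatatcaaaGTAACAAagggtgctgc
TNRC6B, coding sequence, chr22:40264930-40264956, plus strand: agcaccactaGTAACAAaggaaaaggg
TNRC6C, coding sequence, chr17:78073055-78073081, plus strand: gccttgaagaGTAACAAtatgaatctt
CALCRL, coding sequence, chr2:187363419-187363445, minus strand: taactctgttGTAACAAtcattcacct
AGO2 had 1 match, in the 3′ UTR of 1 of its 2 coding transcripts. The coding match of AGO3 lies in 2 of its 4 coding transcripts, and each of its 3′ UTR matches in 1 of 4. A match in the coding sequence was present in 6.17% of genes and in 3 of the 10. The TNRC6B match lies in 2 of its 5 coding transcripts and the TNRC6C match in 5 of 5, while the 3′ UTR of TNRC6B, the longest annotated form of which has 12567 bases, held no match. A match in the 3′ UTR was present in 11.3% of genes, but in 53.5% of the 127 genes whose longest 3′ UTR had at least 10000 bases, a class that includes AGO1, AGO2, AGO3 and TNRC6B. Among 2545 mature human microRNAs in RefSeq (GRCh38.p14), 0 had the complementary seed at bases 2 to 8. The sequences of the siRNAs used are not given in the sources used here.

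Of the GW182 genes, TNRC6B fell under the siRNA and TNRC6A and TNRC6C did not pass the test. TNRC6B (chromosome 22, 40044817 to 40335808, plus strand, GRCh38) had derived means of 368 normalised counts with scrambled siRNA and 203 with CALCRL siRNA. The siRNA group therefore stood at 55.2% of its control, with an interval from 43.4% to 70.3%. By the authors' deposited table the log2 fold change was -0.86 (SE 0.18), with an adjusted p of 0.00014 by the DESeq2 Wald test. Only 87 of the 11261 genes, TNRC6B included, had a Wald statistic that low. TNRC6B was the single gene called among the 10 in the siRNA arm, all tested, against 3.46% of all genes called (1.05% higher and 2.42% lower). Its SE was 1.40 times the median SE of the 50 genes on either side of it in mean count. The adjusted p-value was 0.294 with a Student t reference for 6 residual degrees of freedom, and ranged from 0.000106 to 0.294 over the alternatives.

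TNRC6A (chromosome 16, 24610209 to 24827632, plus strand), the paralogue with the highest mean count of the 10 genes in each table, was close to its control in both arms. Its derived means were 601 and 614 normalised counts with scrambled and CALCRL siRNA, and 846 and 908 with the control guide and the deletion. The authors' deposited tables gave log2 fold changes of 0.03 (SE 0.08) and 0.10 (SE 0.19), and the siRNA interval, from -0.12 to 0.18, does not reach the value of TNRC6B. TNRC6C had 130.5 and 99.8 normalised counts in the siRNA arm, at 76.5% of control (interval 60.4% to 96.7%). In the authors' deposited table this was a log2 fold change of -0.39 (SE 0.17) with an adjusted p of 0.285, not past the threshold.

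TNRC6B and TNRC6C had the opposite sign after the enhancer deletion. TNRC6B had derived means of 452 and 606 normalised counts in the control and deletion groups, a log2 fold change of 0.42 (SE 0.26, adjusted p 0.262) by the authors' deposited table. With the trend of fold change on GC content removed it was at 0.77 and past the threshold (adjusted p 0.0304). The last 500 bases of its transcript with the longest 3′ UTR have 26.8% G and C. The median over the genes of that table is 42.0%. TNRC6C had 6.0 and 19.2 normalised counts, and its log2 fold change of 1.68 had an SE of 1.00 in the authors' deposited table (adjusted p 0.251). At that SE a log2 fold change under 2.66 could not have been called, and the interval reached from -0.28 to 3.65.

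**Figure D1:**
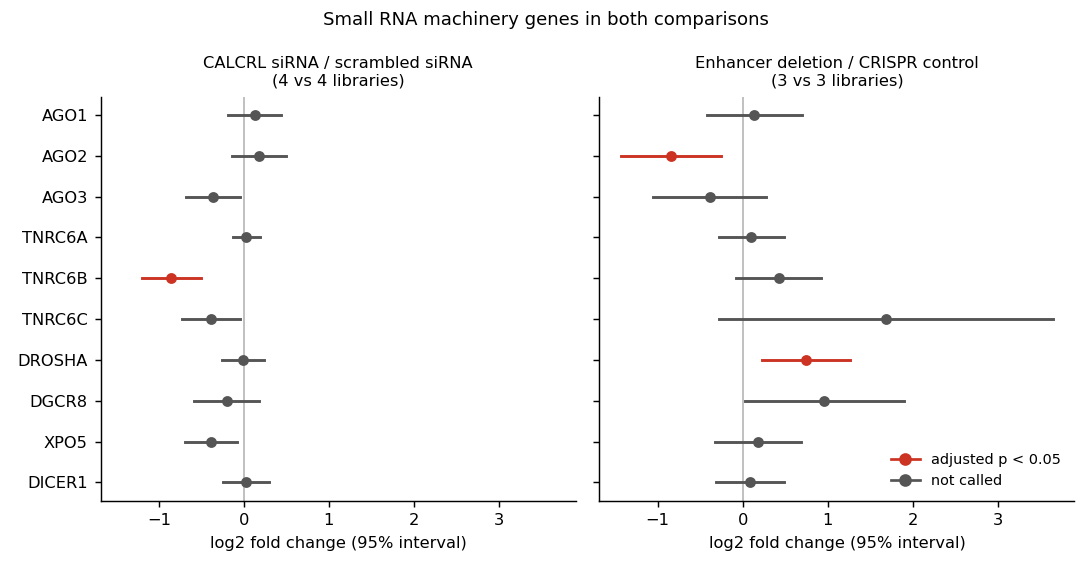
Log2 fold change (x axis) of each of the 10 genes in the siRNA comparison (left, 4 against 4 libraries) and the enhancer deletion comparison (right, 3 against 3), as in the authors' deposited tables. Points are the fold changes, bars the 95% intervals and red marks genes with an adjusted p-value under 0.05: TNRC6B at -0.86 on the left, AGO2 at -0.84 and DROSHA at 0.74 on the right.

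Among the Argonautes, AGO2 fell after the enhancer deletion and no Argonaute gene passed the test in the siRNA arm. AGO2 (chromosome 8, 140520156 to 140635619, minus strand) had derived means of 274 normalised counts with the control guide and 152 with the deletion, which is 55.7% of control (interval 37.1% to 83.7%). The authors' deposited table gave a log2 fold change of -0.84 (SE 0.30) with an adjusted p of 0.0368. After scaled statistics or a Student t reference the adjusted p-value was 0.975 or 0.357, and with the GC trend removed AGO2 was at -0.64 (adjusted p 0.144), no longer past the threshold. With scrambled and CALCRL siRNA the derived means of AGO2 were 222 and 252 normalised counts. The siRNA log2 fold change in the authors' deposited table was 0.18 (SE 0.16, adjusted p 0.797), and its interval from -0.14 to 0.50 does not include the deletion value.

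AGO1 and AGO3, which like AGO2 bind the guide strand, lie in tandem on chromosome 1: AGO1 spans 35869808 to 35930528, and AGO3 starts 189 bases after it and ends at 36072500, both on the plus strand. AGO1 had derived means of 133 and 145 normalised counts in the siRNA arm and 184 and 202 in the deletion arm. Its log2 fold changes in the authors' deposited tables were 0.13 (SE 0.16) and 0.14 (SE 0.29), neither past the threshold. AGO3 had 109.7 and 85.3 normalised counts for scrambled and CALCRL siRNA and 190.1 and 145 for control guide and deletion. In the authors' deposited tables AGO3 was at -0.36 (SE 0.16) and -0.39 (SE 0.34), with adjusted p of 0.2999 and 0.468. With the GC trend removed AGO3 was at -0.13 in the deletion arm. Whether AGO1 and AGO3 differed from each other was not tested.

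In the processing group, DROSHA rose after the deletion, and DGCR8, XPO5 and DICER1 did not pass the test in either arm. DROSHA (chromosome 5, 31400497 to 31532196, minus strand), the RNase that releases microRNA hairpins in the nucleus, had derived means of 264 and 441 normalised counts in the control and deletion groups. This is 167% of control, with an interval from 117% to 239%. By the authors' deposited table the log2 fold change was 0.74 (SE 0.26), with an adjusted p of 0.0374. AGO2 and DROSHA were thus 2 genes called of 10 in the deletion arm, 1 lower and 1 higher, where 15.8% of all genes were called (7.40% higher and 8.44% lower). The adjusted p of DROSHA was 0.975 with scaled statistics and 0.357 with a Student t reference, and ranged from 0.00953 to 0.975 over the alternatives. In the siRNA arm DROSHA had 228 and 226 normalised counts, a log2 fold change of -0.01 (SE 0.13) by the authors' deposited table.

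DGCR8 (chromosome 22, 20080232 to 20111877, plus strand), the RNA-binding partner of DROSHA, was at a log2 fold change of 0.96 (SE 0.48, adjusted p 0.155) after the deletion in the authors' deposited table. Its derived means were 69.5 normalised counts with the control guide and 135 with the deletion, and its interval reached from 0.02 to 1.90. With CALCRL siRNA it was at 87.0% of control, from 69.8 to 60.7 normalised counts. The authors' deposited table gave DGCR8 -0.20 (SE 0.20) in that arm. The last 500 bases of DGCR8 have 54.4% G and C and those of DROSHA 38.0%, and across the genes of the deletion table GC content and log2 fold change went together (Spearman 0.303 over 11630 genes, which share the same libraries). With that trend removed DGCR8 was at 0.63 after the deletion, with an unadjusted p-value of 0.186 in place of 0.0444.

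XPO5 (chromosome 6, 43522330 to 43576075, minus strand), which carries hairpin precursors out of the nucleus, had 252 normalised counts with scrambled siRNA and 192 with CALCRL siRNA, at 76.3% of control (interval 61.8% to 94.2%). Its log2 fold change in the authors' deposited table was -0.39 (SE 0.16), with an adjusted p of 0.187. After the deletion XPO5 had a log2 value of 0.18 (SE 0.26) in the authors' deposited table, from 263 to 298 normalised counts. DICER1 (chromosome 14, 95086228 to 95158010, minus strand), which cuts hairpins into duplexes, was within its error in each arm: 285 and 289.7 normalised counts for siRNA, and 392 and 416 for the deletion. The log2 fold changes of DICER1 in the authors' deposited tables were 0.02 (SE 0.14) and 0.09 (SE 0.20). Its intervals, from -0.25 to 0.29 and from -0.32 to 0.49, show the size of change in DICER1 that the data still allow.

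**Figure D2:**
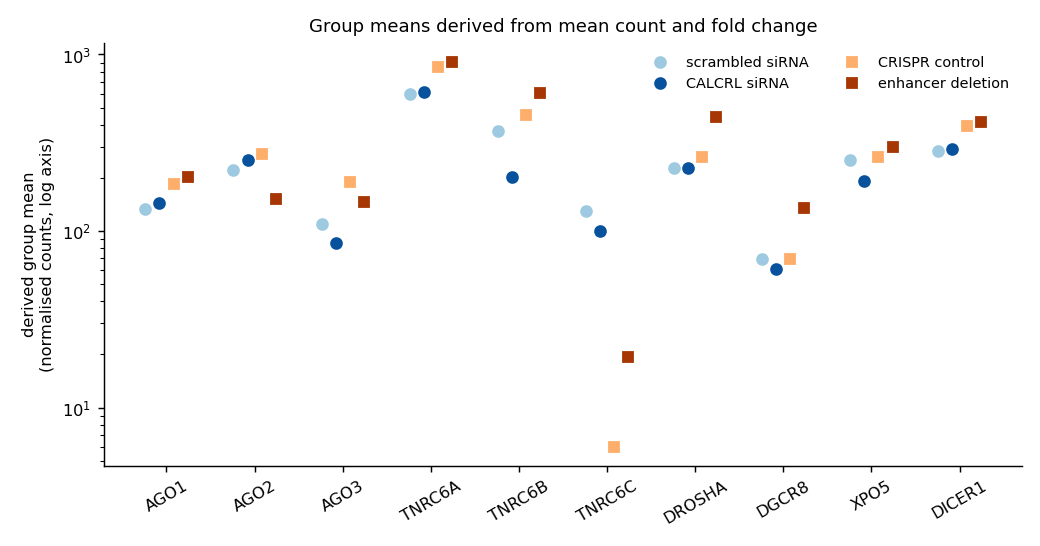
Mean normalised counts (y axis, log scale) of the 4 groups (circles siRNA arm, squares deletion arm, light controls) for each of the 10 genes, derived from the mean count and fold change of each of the authors' deposited tables, with no spread available. TNRC6B drops from 368 to 203 between the siRNA groups, AGO2 from 274 to 152 between the deletion groups, and TNRC6C lies between 6.0 and 19.2 in the deletion arm.

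At the level of the list, 4 of the 10 genes were above 0 and 6 below it in the siRNA arm, with a median log2 fold change of -0.10, against 0.00262 over all genes; DROSHA, at -0.01, moved to 0.0015 with the GC trend removed. In that arm AGO3, TNRC6B, TNRC6C and XPO5 had an unadjusted p-value under 0.05, as did 12.0% of all genes. All 4 of them had negative log2 fold changes in the authors' deposited table, between -0.86 and -0.36. Over all genes of that arm 118 were called higher and 272 lower. The 4 genes with a GTAACAA match, AGO2, AGO3, TNRC6B and TNRC6C, had siRNA log2 fold changes of 0.18, -0.36, -0.86 and -0.39 in the authors' deposited table, and the 6 without one ranged from -0.39 (XPO5) to 0.13 (AGO1). Over the siRNA table the median was -0.12 for 1209 genes with a match in the 3′ UTR, -0.11 for 540 with a match only in the coding sequence and 0.02 for 8896 with none. The word was picked from transcripts lower under the siRNA in these same data, so these medians give no independent support. The ranges of matched and unmatched members overlap. In the deletion arm 8 of the 10 genes were above 0 and AGO2 and AGO3 below it, with a median log2 fold change of 0.16, against 0.00445 over all genes. There AGO2, DROSHA and DGCR8 had an unadjusted p-value under 0.05, as did 29.7% of all genes; DGCR8 did not with the GC trend removed.

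The arms share no libraries, so the difference between them was tested for each gene from the fold changes and their SEs, over 10891 genes. TNRC6B and AGO2 differed between the arms, in opposite directions, and the other 8 genes did not pass the test, while 13.7% of all genes did (7.22% higher and 6.49% lower under siRNA). At an unadjusted p-value under 0.05 there were 5 of the 10, the others being TNRC6C, DROSHA and DGCR8, against 28.3% of all genes. TNRC6B was lower under siRNA than after the deletion by a log2 difference of -1.28 (SE 0.31, adjusted p 0.00212), computed from the authors' deposited tables with a normal reference. AGO2 was higher under siRNA by 1.02 (SE 0.34, adjusted p 0.0278) on the same scale. DROSHA differed by -0.75 (SE 0.29) with an adjusted p of 0.0654, and DGCR8 by -1.16 (SE 0.52) with an adjusted p of 0.110. With the GC trend removed, DROSHA passed the threshold at -0.92 (0.0240) and AGO2 did not at 0.83 (0.0923). The intervals of AGO1 (-0.65 to 0.63), TNRC6A (-0.48 to 0.34) and DICER1 (-0.55 to 0.42) show how large a difference those genes could still have. No member passed with a Student t reference or with scaled statistics, where TNRC6B had adjusted p of 0.276 and 0.992. In either setting 0 of the 10891 genes passed. The arms also differ in delivery, time and control treatment, which cannot be told apart here.

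**Figure D3:**
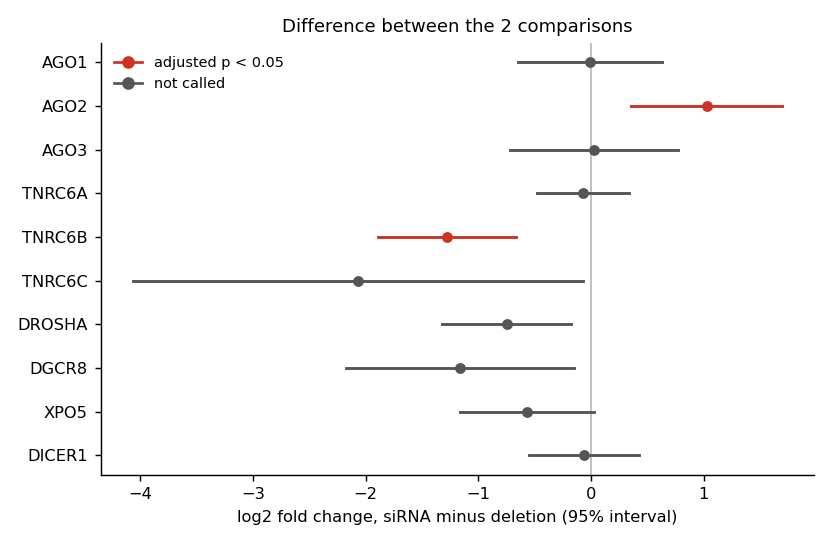
Difference in log2 fold change between the siRNA and the deletion comparison (x axis, siRNA minus deletion) for each of the 10 genes, with 95% intervals. Red marks an adjusted p-value under 0.05 over 10891 genes: TNRC6B lies to the left at -1.28 and AGO2 to the right at 1.02.

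TNRC6C stood apart in level. Relative to the summed mean counts of its table, it had 25.3 CPM in the siRNA arm and 2.45 CPM in the deletion arm, a ratio of 10.3. Just 22 of 10894 genes, TNRC6C included, had as low a level in the deletion table relative to the siRNA table. The other 9 members moved between 0.793 and 1.63 times from the siRNA to the deletion table, the lowest being AGO2 and the highest TNRC6B. The tables were normalised separately and come from separate experiments, and this contrast was not tested. TNRC6C ends at 78108835 on the plus strand of chromosome 17, and the antisense gene TNRC6C-AS1 overlaps its last 1438 bases; TNRC6C-AS1 was not analysed here. Whether the authors' counting used the strand is not given in the sources used here, so reads of the overlap may be assigned differently.

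**Figure D4:**
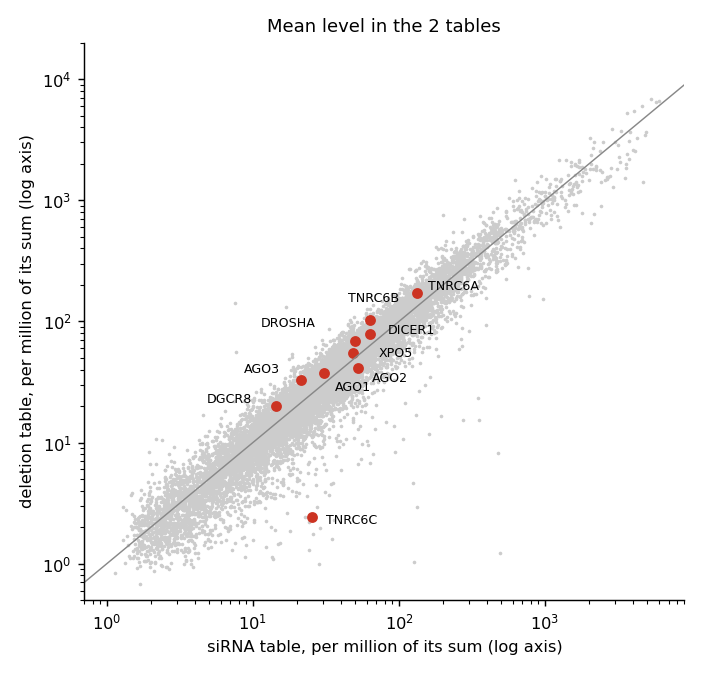
Mean normalised count as CPM of the table's sum, for siRNA (x axis, log scale) and for the deletion (y axis, log scale). Grey points are all genes with values in both tables, the line marks equal levels, and red points are the 10 genes, of which TNRC6C lies far below the line at 25.3 and 2.45.

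A wider set of 57 small RNA pathway genes, the 10 members included, was described by counts. In the siRNA arm 54 had values, and 3 were called, all lower: TNRC6B, DCP2 and FKBP5 (5.56%, against 3.46% of all genes). DCP2, the decapping enzyme that opens deadenylated messages to decay, was at -0.68 (SE 0.17, adjusted p 0.00247) in the authors' deposited table. Its 3′ UTR holds the word shown above in 2 of 3 coding transcripts, at chr5:113019619-113019645 on the plus strand. A 3′ UTR match was present in 11.3% of genes. The word was picked from transcripts lower in this arm, so the match is a description and gives no independent support.
DCP2, 3′ UTR: tttttcttcaGTAACAAaaacagggaa
FKBP5, an HSP90 co-chaperone, was at -0.38 (SE 0.12, adjusted p 0.0440) in the authors' deposited table and has no match in its coding sequence or 3′ UTR. Scaled statistics ended the call of FKBP5 (adjusted p 0.122), and a Student t reference ended both (0.393 for DCP2 and 0.574 for FKBP5).

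In the deletion arm 55 of the wider set had values and 11 were called, 5 higher and 6 lower (20.0%, against 15.8% of all genes). Microprocessor genes and cofactors held 4 of the calls among 8, with a median log2 fold change of 0.42. Besides DROSHA these were SRRT, the cap-binding cofactor also called ARS2, at 1.36 (SE 0.35), KHSRP, which binds precursor terminal loops, at 1.17 (SE 0.26) and HNRNPA1 at -0.68 (SE 0.20) in the authors' deposited table. HNRNPA1, like PABPC1 and HSP90AA1 below, has near-identical copies in the genome, so its count is uncertain. With the GC trend removed SRRT was at 0.79 and HNRNPA1 at -0.53, neither past the threshold (adjusted p 0.123 and 0.0597), and KHSRP and DROSHA kept it. In the siRNA arm 0 of these 8 genes were called by the DESeq2 Wald test, where 3.46% of all genes were called. KHSRP alone had an unadjusted p-value under 0.05 there, as did 12.0% of all genes.

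Of 19 silencing effectors with values, 3 were called after the deletion (15.8%, as of all genes, 15.8%). PABPC1, the poly(A)-binding protein that GW182 contacts, was at -0.99 (SE 0.27) and SND1, a nuclease described in silencing complexes, at 1.12 (SE 0.30) in the authors' deposited table. PAN2, the catalytic subunit of a deadenylase that GW182 recruits, had a derived mean of 23.4 normalised counts in the control group and under 3 in the deletion group, so only the upper end of its interval is given, 21.1% of control (adjusted p 0.00779 in the authors' deposited table). PAN3, its partner, was at -1.11 (SE 0.56, adjusted p 0.163) in the authors' deposited table, not past the threshold. The median of the effectors was 0.10 for the deletion, with PAN2 at its bound too, and -0.09 for siRNA.

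The remaining deletion calls included 1 of 4 genes of Dicer and its partners (25%) and 1 of 8 of RISC loading (12.5%). The last was 1 of 9 of small RNA tailing and decay (11.1%), where 15.8% of all genes were called. Of 3 export genes, XPO5 among them, 0 were called by the DESeq2 Wald test. At an unadjusted p-value under 0.05 there were 0 of the 3, against 29.7% of all genes. ADAR, the RNA editor that also binds DICER1, was at -0.76 (SE 0.23, adjusted p 0.0112), and HSP90AA1, a chaperone of Argonaute loading, was at 0.67 (SE 0.23, adjusted p 0.0299) in the authors' deposited table. HSP90AA1 was at 0.62 and not past the threshold with the GC trend removed (adjusted p 0.0544). ZSWIM8, a ubiquitin ligase adaptor that acts on Argonaute during target-directed microRNA decay, was at -2.44 (SE 0.53, adjusted p 0.000362) in the authors' deposited table, 18.4% of control with an interval from 8.94% to 38.0%. ZSWIM8 did not pass the test under siRNA, at -0.14 (SE 0.19) in the authors' deposited table. All deletion calls of the wider set, 11 in number, were lost with a Student t reference (adjusted p 0.357) and with scaled statistics (0.975). Between the arms 10 of the 54 wider genes with values in both differed, against 13.7% of all genes, with 8 beside TNRC6B and AGO2: KHSRP, ZSWIM8, PABPC1, SND1, SRRT, PAN2, HSP90AA1 and HNRNPA1.

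**Figure D5:**
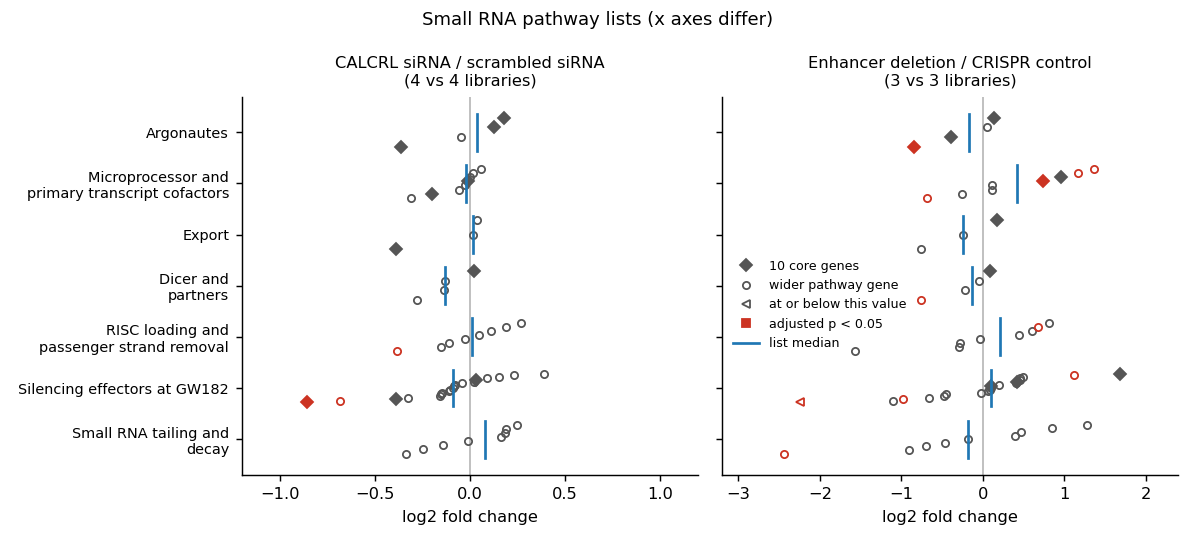
Log2 fold change (x axes, which differ in scale) of the wider small RNA pathway genes by list, for siRNA (left) and the deletion (right). Diamonds are the 10 core genes, circles the wider genes, the triangle marks PAN2 at the upper end of its interval, red an adjusted p-value under 0.05 and blue bars the list medians; the Microprocessor list has a median of 0.42 after the deletion.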

How the data were processed

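Per the labels' protocols, the QuantSeq FWD kit was used, whose reads fall near the 3′ end of the transcript, and sequencing ran for 86 cycles. The authors used featureCounts for counting and DESeq2 for the group comparisons, per the file names and headers. The deposited tables give a mean normalised count, a log2 fold change, its SE, a score (the Wald statistic) and p-values before and after adjustment, with no value per library. The submitters' processing notes name hg19 and edgeR 3.24.3, with no role; aligner, annotation, filters and strand use are not given in the sources used here. Whether the siRNA replicates were separate cultures is not stated, so p-values measure only the spread between these libraries.

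Recomputed as fold change over SE, the Wald statistic matched the deposited one to rounding, as did the Benjamini-Hochberg adjustment over the genes tested (11261 for siRNA; 11830 for the deletion, where 5 had no p-value). The DESeq2 values of the authors are the main test; the count models planned need values per library and were not run. Intervals (95%), group means from equal group sizes, and the arm difference (normal reference, adjusted over 10891 genes) were computed with Python 3.11.15, numpy 2.4.6, scipy 1.17.1 and pandas 2.3.3, and tested on simulated data. Alternatives were a Student t reference (6 and 4 degrees of freedom; Welch-Satterthwaite for the difference), Wald statistics divided by their robust SD (1.11 and 1.88; 1.84 for the difference), only genes with a mean of at least 50, and removal of a robust lowess trend (span 0.3, statsmodels 0.14.6) on GC content of the last 500 bases, in GENCODE 29 on GRCh38. Where the lower derived group mean was at or under 3 normalised counts, no fold was given. GENCODE 29 was used for positions and the word search; it may not be the authors' annotation, and no position was converted between builds.

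All 10 members, every called gene of the wider lists and CALCRL were named by rule; the members and lists were chosen with earlier results of these data known. AGO4 stands in the wider Argonaute list and was not called in either arm. EDC4, LIN28B, HENMT1 (siRNA arm) and PECAM1 were not analysed here. Figures were drawn with matplotlib 3.10.9.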

Additional observations from a re-analysis of the deposited data

Results flagged for a closer look

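In 2 of the 10 genes, TNRC6B and AGO2, the effects of the siRNA and of the enhancer deletion differed by a direct test of the difference. The log2 difference, siRNA minus deletion, was -1.28 for TNRC6B (SE 0.31, adjusted p-value 0.00212) and 1.02 for AGO2 (SE 0.34, adjusted p-value 0.0278). The first rests mainly on the fall of TNRC6B under siRNA (-0.86) with a value of 0.42 after the deletion, and the second on the fall of AGO2 after the deletion (-0.84) with a value of 0.18 under siRNA, all from the authors' deposited tables. Over the alternatives the adjusted p-value of the TNRC6B difference ranged from 5.93e-05 to 0.992. The AGO2 difference passed under none of them. Its adjusted p-value was 0.0923 with the GC trend removed, 0.276 with a Student t reference and 0.992 with scaled statistics. With a Student t reference or scaled statistics 0 of 10891 genes passed, so 0.276 and 0.992 are not particular to AGO2 or TNRC6B.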

How the results depend on the processing

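No paired analysis was possible because single libraries have no values in either table; leaving out each replicate was not run for the same reason. With the DESeq2 Wald statistics referred to a Student t distribution, 0 members were called in the siRNA arm (2 at an unadjusted p-value under 0.05), 0 in the deletion arm (2) and 0 for the difference (3). Wald statistics divided by their robust SD left 0 members in the deletion arm (0 at an unadjusted p-value under 0.05) and 0 for the difference (1), while TNRC6B kept its siRNA call. Over all genes the Student t reference left 5 siRNA calls in place of 390, 0 deletion calls in place of 1874 (1646 at an unadjusted p-value under 0.05) and 0 differences in place of 1493 (1869). Scaled statistics left 262, 0 (535) and 0 (447). The minimum mean count of 50 kept TNRC6B in the siRNA arm and AGO2 and DROSHA in the deletion arm, with TNRC6C below it there. Removal of the GC trend left the member counts at 1, 2 and 2, with TNRC6B in place of AGO2 in the deletion arm and DROSHA in place of AGO2 for the difference. It changed the sign of 4 values near 0, none of them called: DROSHA under siRNA to 0.0015, HNRNPA1 under siRNA to 0.0026, and the arm difference of AGO1 to 0.037 and of AGO3 to -0.21. The cause of these changes was not tested. The median SE was 0.41 in the deletion arm and 0.17 in the siRNA arm.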

Other observations

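Genes with values whose span covers the 3′ end of a member are given here. XPO5 (chromosome 6, minus strand) ends at 43522330, inside POLR1C, a subunit gene of RNA polymerases. POLR1C lies on the plus strand and its annotated span ends at 43562419, with 40090 bases of overlap. The annotated ends of the 2 genes thus differ, and the ends of single POLR1C transcripts were not analysed here. POLR1C was at a log2 fold change of 0.05 (SE 0.17) for siRNA and 0.33 (SE 0.31) for the deletion in the authors' deposited tables, neither past the threshold, where XPO5 was at -0.39 and 0.18. DGCR8 and TRMT2A, a tRNA methyltransferase gene, converge on chromosome 22 and overlap by 12 bases. TRMT2A was at 0.07 (SE 0.26) for siRNA and 1.08 (SE 0.42, adjusted p-value 0.0567) for the deletion in the authors' deposited tables, beside 0.96 (SE 0.48) for DGCR8. The part of the overlaps in these values was not tested.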
